A study of Homo sapiens with 21 samples.

Results

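The transcripts described here are those of 46 interferon-stimulated genes, chosen by name from the well-known targets of type I interferon. The count table held 1 row for 44 of them out of 37355 genes, and IFI27 and IRF7 were not analysed here. RNA came from BT474, an established human breast cancer cell line with amplified HER2, and from resistant pools made from it, in 21 libraries of 7 groups with 3 libraries each. Of the short-term groups, 1 was untreated BT474, 1 was given 10 µg/mL trastuzumab for 3 days, and 1 was given trastuzumab and pertuzumab for 3 days, at 10 µg/mL each. Both are antibodies against HER2. The trastuzumab-resistant cells were 2 pools called BT-TR1 and BT-TR2, and cells resistant to both antibodies (dual-resistant here) were 2 further pools named BT-TPR1 and BT-TPR2. All 4 pools had been without antibody for 7 days at harvest, and all groups share the BT474 background. The labels name no interferon treatment. They do not say whether the libraries of a group came from separate cultures, so each p-value measures the spread between these libraries. Resistance itself was sampled by 2 pools a class.

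Type I interferons bind the receptor chains IFNAR1 and IFNAR2, which activates the kinases TYK2 and JAK1. These activate the complex ISGF3, which holds STAT2 and IRF9 and binds a DNA element known as the ISRE. A palindrome known as the GAS serves mainly the response to interferon gamma. The induced genes include sensors of foreign RNA (DDX58, which encodes RIG-I, and IFIH1, which encodes MDA5), enzymes that act on double-stranded RNA (EIF2AK2, ADAR, the OAS genes), RNA-binding IFIT proteins, membrane proteins that block viral entry or release (the IFITM genes, BST2), and the ubiquitin-like modifier ISG15 with its enzymes. Many are transcribed at a low level without infection. In breast tumours and cell lines, expression of such genes is known to vary widely.

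Promoter sequence from RefSeq (GRCh38.p14) was matched to 37 of the 44 members, 36 by symbol and 1 by an older symbol. In the 250 bases before each listed start, both strands were searched for the core of the ISRE, taken as GAAA, any 2 bases and GAAA, and for the core of the GAS, taken as TTC, any 3 bases and GAA. The ISRE core was present for 22 of the 37 members (59.5%), against 1014 of all 27305 genes with an entry (3.71%). The GAS core was present for 10 of 37 (27.0%), against 8.09% of all genes. Both were present for 6 members, and in BST2, EPSTI1 and MX1 matches to the 2 cores overlapped. A match describes these letters only, and no match says only that they are not in this window. The stretches below belong to members that rose (IFIT1, BST2, EPSTI1) or fell (DDX60, OAS3, PARP14) in the results that follow, 5′ to 3′ on the gene's strand, with matches to either core in capitals. That of PARP14 is a 30-base site within an annotated first exon, and the others run from 200 bases before the start to the gene's first annotated exon (GENCODE 29).
IFIT1, chr10:89392423-89392545, plus strand: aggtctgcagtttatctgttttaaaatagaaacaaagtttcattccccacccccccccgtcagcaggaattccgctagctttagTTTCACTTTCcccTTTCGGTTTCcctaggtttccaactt
BST2, chr19:17405649-17405830, minus strand: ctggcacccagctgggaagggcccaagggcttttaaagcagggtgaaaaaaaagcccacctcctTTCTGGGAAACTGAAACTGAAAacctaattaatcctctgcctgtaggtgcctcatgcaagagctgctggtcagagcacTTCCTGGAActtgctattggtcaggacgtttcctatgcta
EPSTI1, chr13:42992272-42992441, minus strand: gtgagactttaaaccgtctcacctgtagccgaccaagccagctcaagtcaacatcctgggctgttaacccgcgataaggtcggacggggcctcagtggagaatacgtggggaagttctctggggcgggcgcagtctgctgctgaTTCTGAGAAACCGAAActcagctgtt
DDX60, chr4:168318808-168318952, minus strand: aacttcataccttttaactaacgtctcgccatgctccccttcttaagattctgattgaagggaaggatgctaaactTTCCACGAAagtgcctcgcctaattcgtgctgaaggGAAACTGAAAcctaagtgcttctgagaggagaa
OAS3, chr12:112938274-112938351, plus strand: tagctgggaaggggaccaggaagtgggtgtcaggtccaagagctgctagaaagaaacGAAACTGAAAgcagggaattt
PARP14, chr3:122680795-122680824, plus strand: agttTTCCAGGAAacGAAAGCGAAAgagtc
IFIT1 holds 2 ISRE cores, and BST2 and EPSTI1 hold overlapping GAS and ISRE cores. Within the printed stretches DDX60 and PARP14 hold 1 of each core and OAS3 an ISRE core. The stretches were picked by name and each holds an ISRE core, so they do not stand for all members that rose or fell. OAS1, which also rose, matched the GAS core only. The BST2 stretch also overlaps an exon of a long non-coding RNA on the opposite strand.

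Library totals ran from 7939270 (BT-TR1 replicate 3) to 21746391 counts, so that 3 counts, taken as the floor of detection for counting error, equal 0.136 to 0.396 CPM (read counts scaled by TMM-adjusted library size). The 6 epithelial and luminal markers, ERBB2 among them, summed to between 6169 and 13700 CPM in every library, and the 5 immune markers with a row to between 0.256 and 1.795 CPM, with PTPRC, the pan-leukocyte marker, at 0 in all groups but BT-TPR2. Summed fibroblast markers ran from 16.4 to 46.6 CPM and the 4 endothelial ones from 5.45 to 18.4. The fibroblast sum was nearly all COL1A1, with group means of 19.5 to 32.4 CPM, and every other fibroblast marker had group means of 0.624 or less. Most of the endothelial sum was VWF, with group means of 3.89 to 12.7 CPM. Mitochondrial transcripts took 13.7% to 33.3% of counts, most in replicate 1 of the 3 short-term groups. The change of genes in BT-TR1 went with transcript GC content (r = -0.488 over 17554 genes, which are not independent replicates), as did that between the trastuzumab-resistant pools (r = 0.635). In bulk RNA, fewer cells that express a gene and less RNA per cell cannot be told apart.

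Most of these genes were transcribed at a low level. A test across all genes with edgeR (17650 genes tested, a call being an adjusted p under 0.05, and an alternative being the same test under another setting) covered 36 of the 44 members. The other 8 (SAMD9L, XAF1, IFI44L, IFITM1, IFI44, IFIT3, OASL and TRIM22) were removed by the filter on low counts, with 3 to 120 counts over all 21 libraries. Of the tested members, 6 (ISG15, OAS2, BST2, EPSTI1, RSAD2 and IFITM2) stayed under 1 CPM in every group mean, 12 lay between, and 18 had a mean of at least 5 CPM over all libraries. ADAR, which edits adenosine in double-stranded RNA, and EIF2AK2, the RNA-activated kinase PKR, together took 55.6% to 65.4% of the members' summed CPM. Per kilobase of exon, the mean level over all libraries was 40.1 CPM for ADAR, 8.60 for EIF2AK2, 8.01 for STAT2, 6.16 for DTX3L and 5.00 for IFITM3. At the low end of the tested members, EPSTI1 stood at 0.0541 CPM per kilobase and OAS2 at 0.0377.

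**Figure D1:**
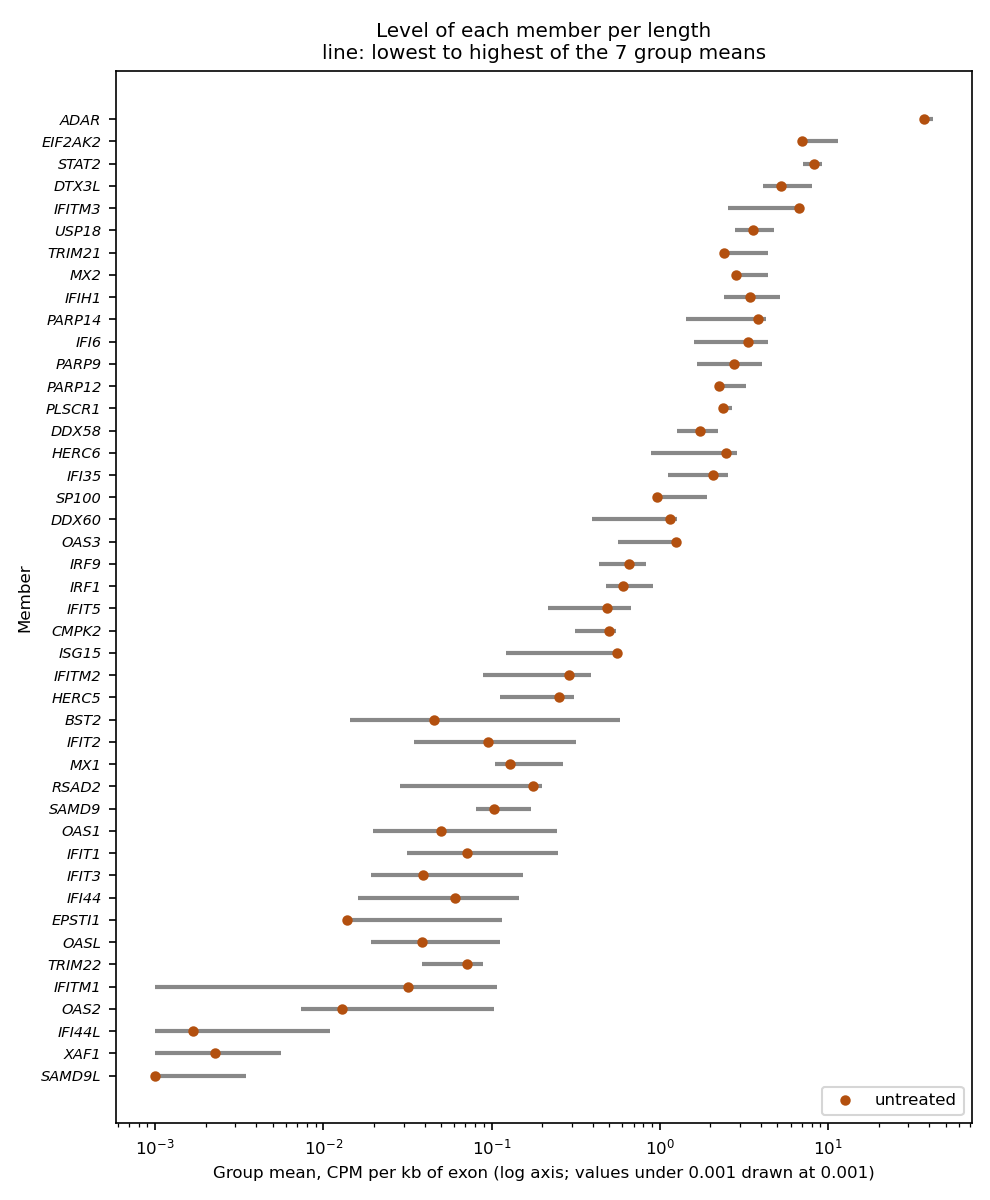
Level of each of the 44 members per length. The x axis gives the group mean in CPM per kb of exon on a log scale, each line runs from the lowest to the highest of the 7 group means, and the orange point is untreated cells. ADAR lies above all others, with a mean of 40.1 CPM per kb over all libraries, and OAS2, at 0.0377, is the lowest of the tested members.

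Upstream of these genes, interferon transcripts were near or below detection. Of 21 interferon ligand genes listed, 6 had a row, with 1 to 10 counts each over all 21 libraries, and 0 passed the filter, so that none could be tested. Levels of the receptors and kinases are given as mean CPM ± SD (n = 3), the short-term groups first (untreated, trastuzumab, both antibodies), then the trastuzumab-resistant and the dual-resistant pools by number. IFNAR1 was at 106 ± 21.3, 91.3 ± 2.54, 97.1 ± 3.45, 124 ± 18.3, 81.6 ± 7.16, 75.4 ± 8.31 and 80.5 ± 11.7. It fell in BT-TPR1 (-0.50 ± 0.14, adjusted p = 0.0128). This result was lost under 5 of 31 alternatives (range 8.49e-05 to 0.137). Among them were those without untreated replicate 2 (-0.29 at an adjusted p of 0.137), without BT-TPR1 replicate 1 (-0.43 at an adjusted p of 0.0599) or without BT-TPR1 replicate 2 (-0.48 at an adjusted p of 0.0529). Its fall in BT-TPR2 (-0.40 ± 0.14, adjusted p = 0.0342) was lost under 9 of 31 alternatives (range 0.000377 to 0.276). This happened with library size alone and a fit of these groups only, and in fits lacking 1 library, namely untreated 2, trastuzumab 1 or 2, both-antibody 1, BT-TR1 2, BT-TPR2 1 or 2 (-0.38 to -0.21, adjusted p 0.0522 to 0.276), and without untreated replicate 2 it was -0.21 (adjusted p = 0.276). IFNAR2 was at 7.49 ± 0.595, 6.604 ± 0.280, 5.35 ± 0.172, 6.56 ± 0.599, 5.67 ± 0.0969, 5.59 ± 0.703 and 6.90 ± 0.306. It fell with both antibodies (-0.49 ± 0.12, adjusted p = 0.013). That one was lost under 5 of 31 alternatives (range 0.000354 to 0.195). They included the fits without untreated replicate 2 (-0.43 at an adjusted p of 0.0615) or without trastuzumab+pertuzumab replicate 3 (-0.46 at an adjusted p of 0.0632). It also fell in BT-TR2 (-0.40 ± 0.12, adjusted p = 0.0219). This call was lost under 8 of 31 alternatives (range 0.00249 to 0.267). That occurred with no filter, library size alone and a fit of these groups only, and in fits lacking 1 library, namely untreated 2 or 3, BT-TR2 1, 2 or 3 (-0.41 to -0.35, adjusted p 0.0541 to 0.0904). A fall in BT-TPR1 passed too (-0.42 ± 0.12, adjusted p = 0.0151). The call was lost under 6 of 31 alternatives (range 0.00252 to 0.213). These included fits without untreated replicate 2 (-0.35 at an adjusted p of 0.0788) or without BT-TPR1 replicate 1 (-0.33 at an adjusted p of 0.09). IFNGR1, the ligand-binding chain for interferon gamma, was at 49.5 ± 8.35, 37.6 ± 2.60, 39.8 ± 3.75, 48.8 ± 8.41, 37.3 ± 3.30, 31.1 ± 3.68 and 35.2 ± 4.60. Its fall in BT-TPR1 (-0.67 ± 0.15, adjusted p = 0.0023) held under all 31 alternatives. That in BT-TPR2 (-0.49 ± 0.15, adjusted p = 0.0148) was lost in a fit of these groups only (-0.48 at an adjusted p of 0.0835), without untreated replicate 2 (-0.32 at an adjusted p of 0.12) or without BT-TPR2 replicate 2 (-0.40 at an adjusted p of 0.0887) (range 0.000333 to 0.12 over 31 alternatives). That in BT-TR2 (-0.41 ± 0.15, adjusted p = 0.0459) was lost under 18 of 31 alternatives (range 0.00418 to 0.263), 14 of them fits without 1 library (-0.45 to -0.25, adjusted p 0.0516 to 0.263), reading -0.25 (adjusted p = 0.263) without untreated replicate 2. IFNGR2 had 4 counts in all, on a row whose span overlaps TMEM50B, and was not tested.

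Among the kinases, the calls of JAK1 were rises and those of TYK2 and JAK2 were falls, though JAK1 and TYK2 were not called in every group. JAK1 was at 77.5 ± 8.71, 97.5 ± 14.3, 107 ± 14.01, 101 ± 4.30, 87.9 ± 8.29, 99.4 ± 5.31 and 110.0 ± 14.2 CPM, and its rise in BT-TPR2 (0.50 ± 0.13, adjusted p = 0.0062) held under all 31 alternatives. Its rise with both antibodies (0.46 ± 0.13, adjusted p = 0.0246) was lost under 6 of 31 alternatives (range 4.48e-05 to 0.152). Those included fits without untreated replicate 1 (0.39 at an adjusted p of 0.102), without untreated replicate 2 (0.50 at an adjusted p of 0.0521), without trastuzumab+pertuzumab replicate 2 (0.46 at an adjusted p of 0.0652) or without trastuzumab+pertuzumab replicate 3 (0.36 at an adjusted p of 0.152). Its rise in BT-TR1 (0.38 ± 0.13, adjusted p = 0.0231) was lost under 7 of 31 alternatives (range 9.57e-05 to 0.105). They included those without untreated replicate 1 (0.32 at an adjusted p of 0.101), without BT-TR1 replicate 2 (0.40 at an adjusted p of 0.0509) or without BT-TR1 replicate 3 (0.38 at an adjusted p of 0.0648). That in BT-TPR1 (0.36 ± 0.13, adjusted p = 0.0464) was lost under 15 of 31 alternatives (range 0.000187 to 0.15), 10 of them fits without 1 library (0.30 to 0.41, adjusted p 0.0543 to 0.15). TYK2 was at 81.02 ± 20.5, 51.96 ± 3.46, 48.99 ± 9.45, 30.9 ± 8.62, 52.4 ± 12.1, 50.1 ± 14.96 and 47.7 ± 17.8 CPM and fell in BT-TR1 (-1.38 ± 0.27, adjusted p = 0.000727) under all 31 alternatives. With the GC correction that fall was -0.66 (adjusted p = 0.000278). Its fall in BT-TPR2 (-0.77 ± 0.27, adjusted p = 0.0351), where the libraries overlapped those of untreated cells, was lost under 5 of 31 alternatives (range 5.31e-06 to 0.176). These included the ones without untreated replicate 1 (-0.52 at an adjusted p of 0.176), without untreated replicate 2 (-0.80 at an adjusted p of 0.0534), without BT-TPR2 replicate 2 (-0.68 at an adjusted p of 0.127) or without BT-TPR2 replicate 3 (-0.57 at an adjusted p of 0.162). With replicate number as a block, TYK2 also fell with trastuzumab (-0.60, adjusted p = 0.000868 against 0.155 without the block), in BT-TR2 (-0.63, 0.000254 against 0.0902) and in BT-TPR1 (-0.70, 7.29e-05 against 0.0607). JAK2, a kinase of the interferon gamma receptor, was low at 1.43 ± 0.239 CPM in untreated cells and fell in each pool, from BT-TR2 (-1.21 ± 0.35, adjusted p = 0.0162) to BT-TPR2 (-2.04 ± 0.38, adjusted p = 0.000484).

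Of the factors that are members, STAT2 passed in no comparison and IRF9 differed between the classes of pool. STAT2 was at 50.4 ± 0.487, 56.4 ± 6.43, 50.5 ± 2.66, 45.8 ± 4.53, 43.1 ± 0.804, 44.5 ± 4.70 and 51.7 ± 10.5 CPM. IRF9, the DNA-binding subunit of ISGF3, read 2.69, 2.27 and 2.50 CPM in untreated cells, 3.63, 2.96 and 2.77 in the BT-TR1 libraries, 2.58, 3.40 and 3.27 in those of BT-TR2, 1.84, 1.13 and 1.99 in those of BT-TPR1, and 2.38, 2.14 and 1.82 in those of BT-TPR2. All 6 dual-resistant libraries were below all 6 of the trastuzumab-resistant pools. The IRF9 row overlaps another annotated protein-coding gene on the same strand, whose counts were 52.0% of its own, so its level is uncertain. With trastuzumab and with both antibodies IRF9 stood at 2.35 ± 0.282 and 2.09 ± 0.143 CPM. Its fall in BT-TPR1 against untreated cells (-0.59 ± 0.20, adjusted p = 0.0382) was lost under 13 of 31 alternatives (range 0.0215 to 0.208). That occurred with no filter, library size alone, a fit of these groups only, replicates 2 and 3 only and DESeq2, and in fits lacking 1 library, namely untreated 1, 2 or 3, trastuzumab 2, both-antibody 1, BT-TR1 2 or 3, BT-TPR1 2 (-0.61 to -0.38, adjusted p 0.0532 to 0.208), and without BT-TPR1 replicate 2 it was -0.38 (adjusted p = 0.208). IRF1, a factor induced most by interferon gamma, was at 4.70 ± 1.11, 7.12 ± 0.988, 5.42 ± 0.678, 4.36 ± 1.56, 4.37 ± 0.929, 3.73 ± 0.202 and 4.79 ± 0.838 CPM. With trastuzumab its change was 0.60 ± 0.22 (adjusted p = 0.108), which passed with the replicate block (0.60, adjusted p = 0.00927).

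Antibody for 3 days changed few of these genes. With trastuzumab alone 2 of 36 members were called higher and 0 lower, against 7.48% of all tested genes called (3.71% higher, 3.78% lower). With both antibodies 3 were higher and 1 lower, against 12.4% (6.39% and 6.02%), shares near the background. The median change over the 36 members was 0.13 and 0.11, against -0.02 and -0.01 over all genes. Without untreated replicate 2 or 3, or trastuzumab replicate 1 or 3, 1 call was left with trastuzumab. With both antibodies 2 were left in 8 such fits, among them those without untreated replicate 2 or 3 or trastuzumab and pertuzumab replicate 2, and those without any 1 library of BT-TR2 or BT-TPR1 replicate 2 or 3. For trastuzumab edgeR had 4 members higher and 2 lower at an unadjusted p under 0.05, and DESeq2 and limma each called 2 and 0. SP100, a component of PML nuclear bodies, read 9.62, 14.5 and 12.1 CPM in untreated cells, 18.6, 23.9 and 26.5 after trastuzumab, and 21.8, 22.6 and 28.3 after both antibodies. The 6 treated libraries all lay above the 3 untreated ones. Its rises (0.93 ± 0.18, adjusted p = 0.00381, and 1.00 ± 0.18, adjusted p = 0.0012) held under all 31 alternatives. In the 4 resistant pools the adjusted p for SP100 was 0.0607 or more.

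PARP12, an ADP-ribosyltransferase, read 15.9, 12.1 and 14.2 CPM in untreated cells, 16.2, 14.7 and 15.4 after trastuzumab, and 20.9, 20.5 and 20.3 after both antibodies. The libraries given both antibodies were above all others of these 3 groups, and the rise there (0.54 ± 0.10, adjusted p = 0.0016) was lost in a fit of these groups only (0.56 at an adjusted p of 0.0638) (range 4.72e-06 to 0.0638 over 31 alternatives). IFIT2, which binds RNA, read 0.440, 0.362 and 0.363 CPM in untreated cells, 0.897, 0.586 and 1.08 after trastuzumab, and 0.605, 0.742 and 0.974 after both antibodies. Its treated libraries lay above the untreated ones, yet its rise with trastuzumab (1.13 ± 0.31, adjusted p = 0.0305) was lost under 9 of 31 alternatives (range 0.0114 to 0.206). Among them were those without untreated replicate 2 (1.10 at an adjusted p of 0.1), without untreated replicate 3 (1.08 at an adjusted p of 0.0917), without trastuzumab replicate 1 (1.12 at an adjusted p of 0.0709) or without trastuzumab replicate 3 (0.91 at an adjusted p of 0.206). That with both antibodies (0.99 ± 0.31, adjusted p = 0.0429) was lost under 15 of 31 alternatives (range 0.0233 to 0.26), 10 of them fits without 1 library (0.79 to 1.10, adjusted p 0.0505 to 0.26). IFIH1 was called lower with both antibodies, at 12.3 ± 2.40 against 17.4 ± 2.88 CPM (-0.50 ± 0.16, adjusted p = 0.0463), and this call was lost under 22 of 31 alternatives (range 8.67e-05 to 0.174), 17 of them fits without 1 library (-0.50 to -0.40, adjusted p 0.052 to 0.174). With the replicate block 5 members were called with trastuzumab, against 26.2% of all genes, adding MX2 (0.26, adjusted p = 0.0198), ISG15 (-2.08, 0.0132) and IRF1. ISG15, close to the floor, read 0.714, 0.362 and 0.499 CPM in untreated cells, and 0.0561, 0.147 and 0.141 after trastuzumab.

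Between both antibodies and trastuzumab alone 0 of 36 members were called by edgeR, against 0.867% of all genes (0.487% higher, 0.38% lower), with 2 higher and 3 lower at an unadjusted p under 0.05. In the same comparison DESeq2 called 1 and limma on the deposited values 0. Without untreated replicate 1 or 2 the count was 1. The replicate block gave 2, against 2.2% of all genes, PARP12 (0.41, adjusted p = 0.00766) and IFIH1 (-0.40, adjusted p = 0.0415).

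**Figure D2:**
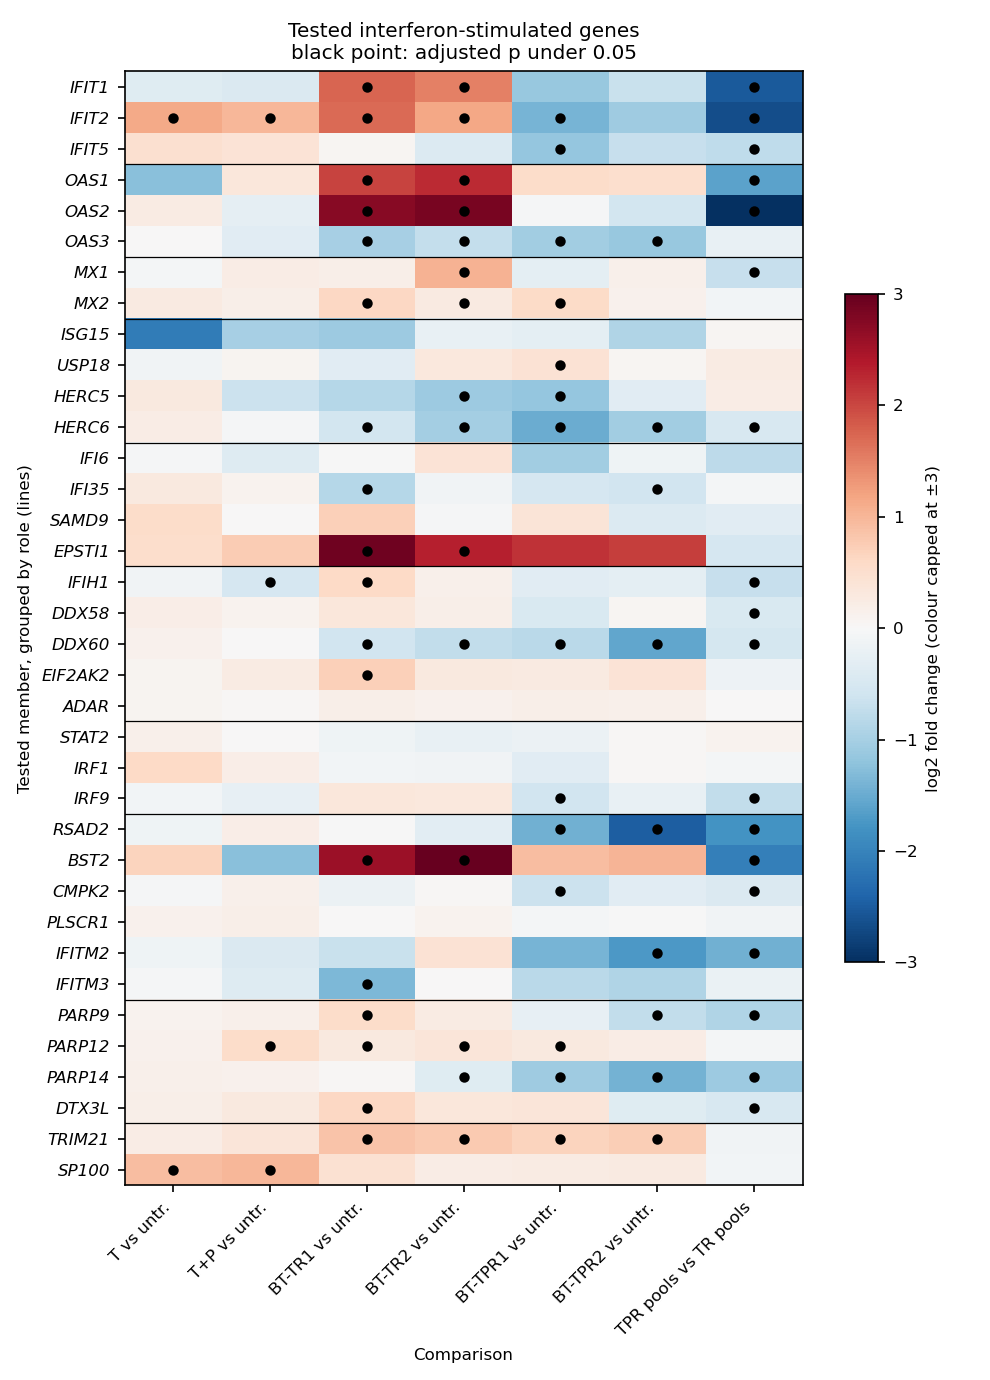
Log2 fold change of the 36 tested members (y axis, grouped by role) in 7 comparisons (x axis; T is trastuzumab, P is pertuzumab), with red higher, blue lower, colour capped at 3 and a black point where the adjusted p was under 0.05. The columns against untreated cells share their 3 control libraries, and the column of dual-resistant against trastuzumab-resistant pools holds 18 points, all lower.

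In the trastuzumab-resistant pools, calls among members of at least 1 CPM went both ways, and those at lower levels were mostly higher than in untreated cells. In BT-TR1 13 of 36 members were called higher and 5 lower, against 43.6% of all genes called (21.3% higher, 22.3% lower). In BT-TR2 10 were higher and 5 lower, against 24.9% (12.7% higher, 12.1% lower). Among the 25 tested members with a mean of at least 1 CPM, 7 were higher and 5 lower in BT-TR1, and 4 and 4 in BT-TR2. These are near the shares of all tested genes, and the share of all genes of that level was not counted here. The median change was 0.17 and 0.20 over the 36, and 0.07 and 0.16 over the 25, against -0.01 and 0.00 over all genes. The other 6 rises in each pool were IFIT1, IFIT2, OAS1, OAS2, BST2 and EPSTI1, among 11 members of lower mean level. Counted before TMM scaling, the filter asks for 0.559 CPM in 3 libraries. IFIT1, OAS2 and BST2 reached that level in no library outside the trastuzumab-resistant pools, and OAS1 and EPSTI1 in 1 each. These genes were tested because they were high in those pools, so their rises are a description of levels and not a count in support. Both comparisons use the same untreated libraries.

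OAS1, which makes the 2-5A messenger that activates RNase L, read 0.220, 0.207 and 0.318 CPM in untreated cells, 0.816, 1.30 and 1.06 in the BT-TR1 libraries, 1.20, 1.08 and 1.35 in those of BT-TR2, 0.345, 0.378 and 0.385 in those of BT-TPR1, and 0.174, 0.558 and 0.313 in those of BT-TPR2. Every library of the trastuzumab-resistant pools lay above every other library of the study, and with trastuzumab and with both antibodies OAS1 stood at 0.0978 ± 0.0785 and 0.319 ± 0.152 CPM. It rose in BT-TR1 (2.04 ± 0.41, adjusted p = 0.000823) and in BT-TR2 (2.23 ± 0.38, adjusted p = 0.000279) under all 31 alternatives. OAS1 reached the level asked by the filter in 1 library outside these pools, so these p-values describe levels only. OAS2, another synthetase, read 0.0549, 0.0517 and 0.136 CPM in untreated cells, 0.519, 0.435 and 0.924 in the BT-TR1 libraries, and 0.420, 0.566 and 0.962 in those of BT-TR2. The untreated libraries held 5 reads of OAS2 in all, BT-TR1 held 19 and BT-TR2 33. These are ratios of summed CPM of 6.96 (95% exact interval 2.51 to 23.8) and 7.61 (95% exact interval 2.95 to 24.96), intervals that cover counting error only. Both rises were called (adjusted p = 0.00383 and 0.0026), also under all 30 alternatives that could be run. OAS2 passed the filter through these pools alone, so its p-values and their stability are not support for the rises.

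IFIT1 and IFIT2, whose proteins bind RNA, were called higher in both trastuzumab-resistant pools, and IFIT5, at 2.05 ± 0.210 CPM for BT-TR1 and 1.47 ± 0.309 for BT-TR2 against 1.94 ± 0.641 in untreated cells, in neither. IFIT1 read 0.440, 0.414 and 0.136 CPM in untreated cells, 0.742, 1.13 and 1.58 in the BT-TR1 libraries, 1.02, 0.927 and 0.834 in those of BT-TR2, 0.115, 0.0629 and 0.256 in those of BT-TPR1, and 0.233, 0.186 and 0.188 in those of BT-TPR2, with 0.245 ± 0.117 given trastuzumab and 0.234 ± 0.0935 given both antibodies. The 6 libraries of the trastuzumab-resistant pools were above all 15 others. IFIT1 rose in BT-TR1 (1.75 ± 0.42, adjusted p = 0.00286) under all 31 alternatives, and its rise in BT-TR2 (1.51 ± 0.40, adjusted p = 0.01) was lost without untreated replicate 3 (1.11 at an adjusted p of 0.0549) (range 0.00247 to 0.0549 over 31 alternatives). The filter passed IFIT1 through these pools alone, so its p-values describe levels only. IFIT2 rose in BT-TR1 (1.70 ± 0.32, adjusted p = 0.000445, all 31 alternatives), to 1.26, 1.04 and 1.58 CPM, and in BT-TR2 (1.15 ± 0.31, adjusted p = 0.0116), to 0.960, 0.927 and 0.705 CPM, a call that was lost with no filter (1.15 at an adjusted p of 0.0566) or on replicates 2 and 3 only (1.17 at an adjusted p of 0.0521) (range 0.00625 to 0.0566 over 31 alternatives). IFIT3, which was not tested, stood at 0.386 ± 0.130 and 0.404 ± 0.0905 CPM in these pools against 0.103 ± 0.0551 in untreated cells. IFIT1, IFIT2 and IFIT3 overlap the annotated span of the much more abundant LIPA on the opposite strand, and without a stated strand setting reads of the partners cannot be told apart where they overlap.

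BST2, the tetherin that holds budding virus at the membrane, had 3 reads in the untreated libraries together (0.0549, 0.0517 and 0.0454 CPM), and read 0.445, 0.348 and 0.132 CPM for BT-TR1 and 0.600, 0.566 and 0.769 for BT-TR2. Its means in the other groups were 0.0803 ± 0.0743 after trastuzumab, 0.0162 ± 0.0281 after both, 0.105 ± 0.131 for BT-TPR1 and 0.112 ± 0.0167 for BT-TPR2. Ratios of summed CPM to untreated cells were 6.71 (95% exact interval 1.77 to 37.5) for BT-TR1 and 12.7 (95% exact interval 3.98 to 64.6) for BT-TR2. The second passed under all 31 alternatives (adjusted p = 0.000751), and the first (adjusted p = 0.0154) was lost on replicates 2 and 3 only (2.26 at an adjusted p of 0.075) or without BT-TR1 replicate 1 (2.24 at an adjusted p of 0.078) (range 0.00445 to 0.078 over 30 alternatives). The filter passed BST2 through BT-TR2 alone, so its p-values describe levels only. EPSTI1, an interferon-responsive gene first described in epithelial and stromal cells, read 0.0549, 0.103 and 0.0454 CPM in untreated cells, 0.445, 0.609 and 0.660 in the BT-TR1 libraries, 0.300, 0.257 and 0.577 in those of BT-TR2, 0.172, 0.126 and 0.705 in those of BT-TPR1, and 0.174, 0.465 and 0.251 in those of BT-TPR2. All 12 resistant libraries lay above the untreated ones. Ratios of summed CPM were 8.24 (95% exact interval 2.71 to 33.5) for BT-TR1, 5.47 (95% exact interval 1.82 to 22.1) for BT-TR2, 4.87 (95% exact interval 1.57 to 20.04) for BT-TPR1 and 4.63 (95% exact interval 1.51 to 18.9) for BT-TPR2. The rise in BT-TR1 passed (adjusted p = 0.00639) under all 30 alternatives that could be run, and that in BT-TR2 (adjusted p = 0.036) was lost under 6 of 30 alternatives (range 0.00802 to 0.143). They included the fits without untreated replicate 1 (2.25 at an adjusted p of 0.0847), without untreated replicate 2 (2.74 at an adjusted p of 0.0601), without untreated replicate 3 (2.12 at an adjusted p of 0.102) or without BT-TR2 replicate 3 (1.94 at an adjusted p of 0.143). The dual-resistant pools passed with the replicate block (adjusted p = 0.0164 in each) and not without it (0.0535 and 0.0559). EPSTI1 reached the level asked by the filter mainly in the trastuzumab-resistant pools, so its p-values in those pools describe levels only. Of the 4 endothelial markers, CDH5, a cadherin of endothelial junctions, was also higher in these pools, at 2.60 ± 0.711 CPM for BT-TR1 and 2.01 ± 0.195 for BT-TR2. It was at 0.121 ± 0.0880 in untreated cells, 0.275 ± 0.104 after trastuzumab, 0.645 ± 0.0554 after both, 0.424 ± 0.160 for BT-TPR1 and 0.676 ± 0.204 for BT-TPR2. PECAM1 and KDR had group means of 0 to 0.200 and 0 to 0.158 CPM, and VWF was at 12.7 ± 4.79 in untreated cells, 3.89 ± 0.761 for BT-TR1 and 10.6 ± 3.47 for BT-TR2. The part of these markers in the rises was not tested.

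**Figure D3:**
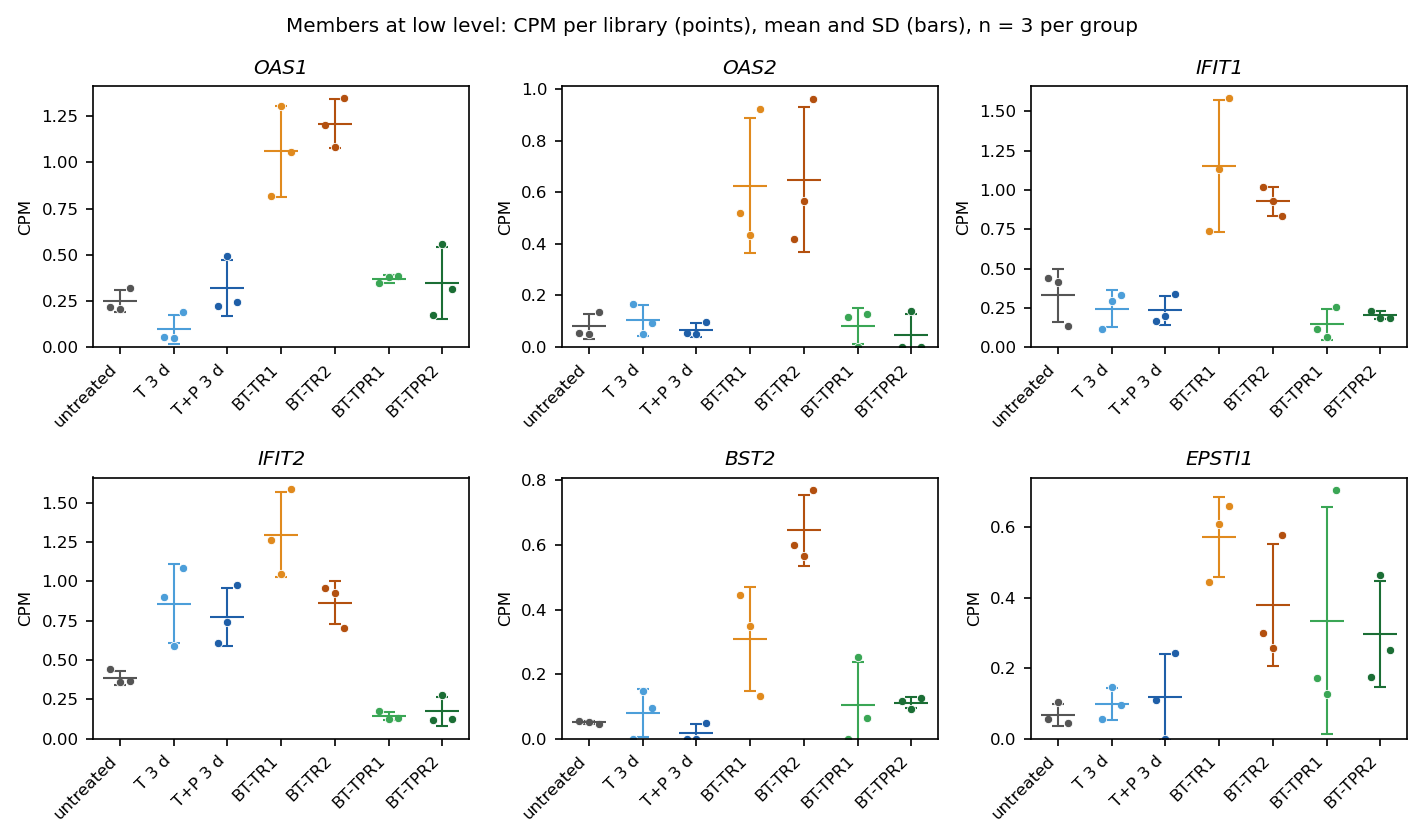
CPM of OAS1, OAS2, IFIT1, IFIT2, BST2 and EPSTI1 in every library (points), with the group mean and SD as bars, by group on the x axis. OAS1 and IFIT1 are higher in the 6 BT-TR1 and BT-TR2 libraries than in all 15 others, and EPSTI1 is above untreated cells in all 12 resistant libraries.

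Both Mx genes were called higher in BT-TR2, and in BT-TR1 MX2 alone of these. MX1, a dynamin-like antiviral GTPase, read 0.989, 1.34 and 0.998 CPM in untreated cells, 0.816, 1.48 and 1.58 in the BT-TR1 libraries, and 2.46, 2.32 and 2.05 in those of BT-TR2, and stood at 1.07 ± 0.135 after trastuzumab, 1.28 ± 0.163 after both, 0.900 ± 0.0736 for BT-TPR1 and 1.23 ± 0.245 for BT-TPR2. It rose in BT-TR2 (1.03 ± 0.22, adjusted p = 0.00208) under all 31 alternatives, and in BT-TR1 the change was 0.17 ± 0.25 (adjusted p = 0.695). MX2, its paralog, read 37.4, 35.2 and 38.3 CPM in untreated cells, 58.4, 57.5 and 55.3 in the BT-TR1 libraries, 46.2, 44.3 and 42.2 in those of BT-TR2, 57.03, 53.7 and 55.4 in those of BT-TPR1, and 39.9, 36.9 and 44.4 in those of BT-TPR2. It rose in BT-TR1 (0.63 ± 0.09, adjusted p = 3.33e-05) and BT-TPR1 (0.58 ± 0.09, adjusted p = 8.39e-05) under all 31 alternatives, and its smaller rise in BT-TR2 (0.26 ± 0.09, adjusted p = 0.0381) was lost under 11 of 31 alternatives (range 0.0122 to 0.381). That occurred with no filter, a fit of these groups only and replicates 2 and 3 only, and in fits lacking 1 library, namely untreated 1, 2 or 3, BT-TR2 1, 2 or 3, BT-TPR1 1 or 2 (0.23 to 0.29, adjusted p 0.052 to 0.114).

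Of 5 tested RNA sensors and RNA-binding enzymes, IFIH1 and EIF2AK2 rose in BT-TR1, DDX60 fell and DDX58 and ADAR were not called. IFIH1 read 14.1, 19.2 and 18.96 CPM in untreated cells, 21.8, 28.5 and 29.04 for BT-TR1 and 18.9, 19.98 and 19.7 for BT-TR2, and stood at 16.3 ± 1.91 after trastuzumab, 13.7 ± 0.937 for BT-TPR1 and 14.2 ± 1.97 for BT-TPR2. Its rise in BT-TR1 was 0.60 ± 0.16, adjusted p = 0.00619, and with the GC correction 0.26 (adjusted p = 0.0343). With the replicate block it was lower than in untreated cells in BT-TPR1 (-0.34, adjusted p = 0.0118 against 0.118 without) and BT-TPR2 (-0.30, 0.0205 against 0.159). EIF2AK2 read 60.7, 87.5 and 76.2 CPM in untreated cells and 96.4, 128 and 146 for BT-TR1, a rise of 0.72 ± 0.19, adjusted p = 0.00496, or 0.34 (adjusted p = 0.00327) with the GC correction. In both genes the BT-TR1 libraries lay above all untreated ones, and the calls held under all 31 alternatives. EIF2AK2 stood at 78.5 ± 13.6 after trastuzumab, 88.9 ± 12.6 after both, 90.9 ± 13.9 for BT-TR2, 90.5 ± 12.3 for BT-TPR1 and 99.96 ± 17.3 for BT-TPR2. In the last 3 it passed with the replicate block (0.28, 0.28 and 0.42, adjusted p = 0.00635, 0.00612 and 0.000151) and not without it (0.285, 0.288 and 0.094). DDX58 was at 7.55 ± 1.91, 8.69 ± 1.70, 8.19 ± 1.23, 9.59 ± 1.56, 8.57 ± 2.07, 5.47 ± 0.923 and 7.93 ± 1.15 CPM in the order of groups given above and passed in no comparison with untreated cells, though with the block it was higher in BT-TR1 (0.35, adjusted p = 0.026) and lower in BT-TPR1 (-0.46, adjusted p = 0.00726).

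PARP9 and DTX3L, which form an ADP-ribosylation and ubiquitin ligase complex, rose together in BT-TR1. PARP9 read 21.7, 25.9 and 26.04 CPM in untreated cells and 31.2, 36.3 and 40.4 for BT-TR1 (0.55 ± 0.13, adjusted p = 0.00234). DTX3L read 24.9, 31.4 and 36.1 CPM in untreated cells and 43.5, 45.7 and 52.9 for BT-TR1 (0.62 ± 0.15, adjusted p = 0.00318). In neither gene did the 2 groups overlap, and both calls held under all 31 alternatives. With the GC correction the rises were 0.27 and 0.39 (adjusted p = 0.0204 and 0.00533). Their spans overlap on opposite strands, so each may hold reads of the other. PARP12 rose in BT-TR1 (0.28 ± 0.11, adjusted p = 0.037). This one was lost under 6 of 31 alternatives (range 0.0114 to 0.415). These included fits without untreated replicate 2 (0.21 at an adjusted p of 0.105), without untreated replicate 3 (0.29 at an adjusted p of 0.0653) or without BT-TR1 replicate 2 (0.30 at an adjusted p of 0.0607). A rise in BT-TR2 passed too (0.35 ± 0.10, adjusted p = 0.0174). That result was lost with no filter (0.35 at an adjusted p of 0.241), in a fit of these groups only (0.35 at an adjusted p of 0.13), without untreated replicate 2 (0.27 at an adjusted p of 0.075) or without BT-TR2 replicate 1 (0.33 at an adjusted p of 0.053) (range 0.00232 to 0.241 over 31 alternatives). PARP14 read 33.8, 42.8 and 43.9 CPM in untreated cells and 38.7, 43.6 and 41.3 for BT-TR1, and its change of 0.04 there turned to -0.25 (adjusted p = 0.035) with the GC correction, which shifted the median of all genes by -0.12.

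OAS3, HERC6 and DDX60 fell in all 4 resistant pools. OAS3, the synthetase that responds to long double-stranded RNA, read 11.5, 8.53 and 10.7 CPM in untreated cells, 4.82, 5.57 and 4.88 in the BT-TR1 libraries, 6.18, 5.04 and 7.63 in those of BT-TR2, 4.66, 4.84 and 5.45 in those of BT-TPR1, and 4.65, 4.79 and 4.58 in those of BT-TPR2. No resistant library reached the lowest untreated one, and OAS3 stood at 10.4 ± 0.881 after trastuzumab and 8.04 ± 0.642 after both. Its falls in BT-TR1 (-1.01 ± 0.16, adjusted p = 9.37e-05), BT-TR2 (-0.71 ± 0.15, adjusted p = 0.00213), BT-TPR1 (-1.04 ± 0.15, adjusted p = 6.63e-05) and BT-TPR2 (-1.13 ± 0.15, adjusted p = 1.96e-05) each held under all 31 alternatives. HERC6, a HECT ubiquitin ligase, read 12.5, 16.6 and 14.1 CPM in untreated cells, 8.75, 10.6 and 10.3 in the BT-TR1 libraries, 5.997, 7.72 and 7.57 in those of BT-TR2, 4.60, 5.10 and 5.64 in those of BT-TPR1, and 5.88, 7.02 and 8.02 in those of BT-TPR2. Its falls in BT-TR2 (-1.02 ± 0.19, adjusted p = 0.000596), BT-TPR1 (-1.49 ± 0.19, adjusted p = 1.42e-05) and BT-TPR2 (-1.05 ± 0.19, adjusted p = 0.000324) held under all 31 alternatives, and that in BT-TR1 (-0.55 ± 0.19, adjusted p = 0.0255) was lost under 5 of 31 alternatives (range 1.62e-05 to 0.124). Those included fits without untreated replicate 2 (-0.41 at an adjusted p of 0.124), without BT-TR1 replicate 1 (-0.43 at an adjusted p of 0.123), without BT-TR1 replicate 2 (-0.58 at an adjusted p of 0.0523) or without BT-TR1 replicate 3 (-0.55 at an adjusted p of 0.0673).

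DDX60, a helicase reported to aid RIG-I signalling, read 6.04, 9.26 and 8.12 CPM in untreated cells, 4.60, 5.92 and 5.28 in the BT-TR1 libraries, 4.02, 5.41 and 4.55 in those of BT-TR2, 4.37, 4.28 and 4.74 in those of BT-TPR1, and 2.62, 2.09 and 3.26 in those of BT-TPR2. The BT-TPR2 libraries were the lowest, and no resistant library reached the lowest untreated one. Its falls in BT-TPR1 (-0.81 ± 0.18, adjusted p = 0.00315) and BT-TPR2 (-1.57 ± 0.19, adjusted p = 5.82e-06) held under all 31 alternatives. That in BT-TR2 (-0.74 ± 0.18, adjusted p = 0.00599) was lost in a fit of these groups only (-0.74 at an adjusted p of 0.0532) (range 0.000271 to 0.0532 over 31 alternatives). That in BT-TR1 (-0.57 ± 0.19, adjusted p = 0.0197) was lost in a fit of these groups only (-0.59 at an adjusted p of 0.0601), without untreated replicate 2 (-0.41 at an adjusted p of 0.108), without BT-TR1 replicate 1 (-0.44 at an adjusted p of 0.106) or without BT-TR1 replicate 3 (-0.55 at an adjusted p of 0.0628) (range 2.28e-05 to 0.108 over 31 alternatives). HERC5, the ligase that attaches ISG15, fell from 1.20 ± 0.224 to 0.543 ± 0.263 CPM in BT-TR2 (adjusted p = 0.0385) and to 0.539 ± 0.181 for BT-TPR1 (adjusted p = 0.0308). The first call was lost under 9 of 31 alternatives (range 0.0133 to 0.163). This occurred with library size alone, a fit of these groups only and replicates 2 and 3 only, and in fits lacking 1 library, namely untreated 1, 2 or 3, trastuzumab 2, BT-TR2 1 or 3 (-1.20 to -0.78, adjusted p 0.0513 to 0.163). The second was lost under 6 of 31 alternatives (range 0.00882 to 0.147). They included those without untreated replicate 1 (-0.99 at an adjusted p of 0.105), without untreated replicate 3 (-1.16 at an adjusted p of 0.0562), without BT-TPR1 replicate 1 (-0.90 at an adjusted p of 0.123) or without BT-TPR1 replicate 2 (-1.20 at an adjusted p of 0.0772). IFI35 fell in BT-TR1 from 4.09 ± 0.523 to 2.19 ± 0.735 CPM (-0.86 ± 0.23, adjusted p = 0.00579). This result was lost with GC correction (-0.46 at an adjusted p of 0.065) or with GC correction and replicate block (-0.44 at an adjusted p of 0.0728) (range 0.00117 to 0.0728 over 31 alternatives). A fall in BT-TPR2 passed too (-0.57 ± 0.21, adjusted p = 0.044). That one was lost under 13 of 31 alternatives (range 0.0114 to 0.154), 9 of them fits without 1 library (-0.58 to -0.46, adjusted p 0.0517 to 0.154). IFI35 was the 1 call of 18 in BT-TR1 that ended with the GC correction. The 13 members called higher in BT-TR1 had a median GC content of 44.96% and the 5 called lower 54.7%, against 48.2% over all tested genes, and the part of GC content in these calls was not tested beyond that correction.

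The IFITM genes were represented mainly by IFITM3. It read 11.9, 6.52 and 8.66 CPM in untreated cells, 5.34, 2.61 and 2.38 in the BT-TR1 libraries, 13.3, 6.49 and 7.63 in those of BT-TR2, 7.13, 4.53 and 3.65 in those of BT-TPR1, and 7.45, 4.00 and 3.01 in those of BT-TPR2, and 8.77 ± 1.99 after trastuzumab and 6.92 ± 1.64 after both. Replicate 1 was the highest in each of the 7 groups. IFITM3 fell in BT-TR1 (-1.34 ± 0.39, adjusted p = 0.00976). That call was lost without untreated replicate 1 (-1.08 at an adjusted p of 0.0525), without BT-TR1 replicate 2 (-1.14 at an adjusted p of 0.0509) or without BT-TR1 replicate 3 (-1.14 at an adjusted p of 0.0501) (range 8.5e-08 to 0.0525 over 31 alternatives). In the dual-resistant pools it passed with the replicate block (-0.83, adjusted p = 0.00011, and -0.93, adjusted p = 2.27e-05) and not without it (0.103 and 0.0643). IFITM2 was at 0.447 ± 0.231, 0.406 ± 0.0662, 0.319 ± 0.115, 0.250 ± 0.170, 0.603 ± 0.153, 0.160 ± 0.116 and 0.138 ± 0.104 CPM, and its fall in BT-TPR2 (-1.71 ± 0.57, adjusted p = 0.0277) was lost without BT-TPR2 replicate 1 (-1.65 at an adjusted p of 0.059), without BT-TPR2 replicate 2 (-1.25 at an adjusted p of 0.153) or with DESeq2 (-1.76 at an adjusted p of 0.0513) (range 0.0106 to 0.153 over 28 alternatives). IFITM1 had 17 counts in all, with group means from 0 to 0.116 CPM, and overlaps IFITM2 on the same strand.

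In the dual-resistant pools most called members were lower than in untreated cells. In BT-TPR1 4 of 36 were called higher and 10 lower, against 27.3% of all genes called (12.9% higher, 14.4% lower), and with the replicate block 7 and 17, against 23.2% and 24.1% of all genes. In BT-TPR2 1 was higher and 8 lower, against 31.6% (15.6% higher, 16% lower), and with the block 4 and 12, against 24.6% and 26.5%. The 9 calls in BT-TPR2 without the block are no larger a share of the members than that of all genes, and the share lower is near its background. Without untreated replicate 2 the total for BT-TPR1 was 8 in place of 14, and without BT-TPR1 replicate 3 it was 9. Among the 25 members with a mean of at least 1 CPM, 4 were higher and 7 lower in BT-TPR1, with 1 and 6 for BT-TPR2. The share of all genes of that level was not counted for either pool. The median change over the 36 members was -0.32 in each pool, against 0.00 and -0.01 over all genes, and scaling by library size alone shifted the median of all genes in BT-TPR1 by 0.14. Over the 25 members the median was -0.33 in BT-TPR1 and -0.12 in BT-TPR2.

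PARP14, a macrodomain ADP-ribosyltransferase, read 42.6, 47.6 and 44.7 CPM after trastuzumab, 43.2, 46.9 and 42.1 after both antibodies, 27.4, 34.03 and 32.9 in those of BT-TR2, 18.4, 18.8 and 20.1 in those of BT-TPR1, and 12.3, 17.4 and 15.5 in those of BT-TPR2. All 6 dual-resistant libraries lay below all 15 others. Its falls in BT-TPR1 (-1.07 ± 0.13, adjusted p = 6.83e-06) and BT-TPR2 (-1.41 ± 0.13, adjusted p = 1.99e-07) held under all 31 alternatives, and that in BT-TR2 (-0.35 ± 0.13, adjusted p = 0.0479) was lost under 23 of 31 alternatives (range 0.000544 to 0.275), 18 of them fits without 1 library (-0.42 to -0.26, adjusted p 0.0569 to 0.181). PARP9 fell in BT-TPR2, to 14.2, 14.7 and 15.5 CPM (-0.73 ± 0.13, adjusted p = 0.000283, held under all 31), and in BT-TPR1, at 18.4, 20.8 and 22.4, its change passed with the block (-0.26, adjusted p = 0.0212) and not without (0.142). DTX3L stood at 39.4 ± 3.96 CPM for BT-TPR1 and 24.01 ± 2.59 for BT-TPR2, and its changes passed with the block in opposite directions (0.36, adjusted p = 0.00193, and -0.35, adjusted p = 0.00272), but not without it (0.0861 and 0.0762).

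RSAD2, which encodes viperin, an enzyme that makes a chain-terminating nucleotide, read 0.989, 0.827 and 0.726 CPM in untreated cells, 0.667, 1.04 and 0.792 in the BT-TR1 libraries, 0.540, 0.669 and 0.834 in those of BT-TR2, 0.172, 0.440 and 0.320 in those of BT-TPR1, and 0.116, 0.233 and 0.0627 in those of BT-TPR2. Every dual-resistant library lay below every library of these other groups. It fell in BT-TPR2 (-2.48 ± 0.43, adjusted p = 0.000259, all 31 alternatives), where 8 reads stood against 50 in untreated cells, a ratio of summed CPM of 0.174 (95% exact interval 0.0714 to 0.371). Its fall in BT-TPR1 (-1.43 ± 0.38, adjusted p = 0.00952) was lost on replicates 2 and 3 only (-0.9992 at an adjusted p of 0.113) or without BT-TPR1 replicate 1 (-1.13 at an adjusted p of 0.0579) (range 0.00308 to 0.113 over 31 alternatives). CMPK2, the neighbouring nucleotide kinase gene, fell in BT-TPR1 from 2.14 ± 0.361 to 1.35 ± 0.148 CPM (-0.65 ± 0.20, adjusted p = 0.022). The result was lost under 9 of 31 alternatives (range 0.0151 to 0.139). These included the ones without untreated replicate 1 (-0.49 at an adjusted p of 0.124), without untreated replicate 2 (-0.64 at an adjusted p of 0.054), without BT-TPR1 replicate 1 (-0.64 at an adjusted p of 0.0611) or without BT-TPR1 replicate 3 (-0.59 at an adjusted p of 0.0829). The spans of RSAD2 and CMPK2 overlap on opposite strands.

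IFIT5 fell in BT-TPR1 from 1.94 ± 0.641 to 0.866 ± 0.294 CPM (-1.17 ± 0.33, adjusted p = 0.0141). This call was lost without untreated replicate 2 (-0.86 at an adjusted p of 0.0916), without BT-TPR1 replicate 1 (-0.98 at an adjusted p of 0.0657) or without BT-TPR1 replicate 3 (-1.10 at an adjusted p of 0.0528) (range 0.00141 to 0.0916 over 31 alternatives). IFIT2 fell there to 0.142 ± 0.0263 CPM (-1.39 ± 0.44, adjusted p = 0.0491). That call was lost under 22 of 30 alternatives (range 0.0255 to 0.134), 18 of them fits without 1 library (-1.55 to -1.27, adjusted p 0.0503 to 0.134). USP18, the protease that removes ISG15, rose in BT-TPR1 from 7.59 ± 0.920 to 10.2 ± 0.334 CPM (0.43 ± 0.14, adjusted p = 0.0296). This call was lost under 7 of 31 alternatives (range 0.00328 to 0.189). This happened with no filter and a fit of these groups only, and in fits lacking 1 library, namely untreated 2 or 3, BT-TPR1 1, 2 or 3 (0.36 to 0.45, adjusted p 0.05 to 0.0881). PARP12 rose there too (0.28 ± 0.10, adjusted p = 0.0485). The call was lost under 15 of 31 alternatives (range 0.0056 to 0.417), 13 of them fits without 1 library (0.22 to 0.30, adjusted p 0.0568 to 0.138).

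**Figure D4:**
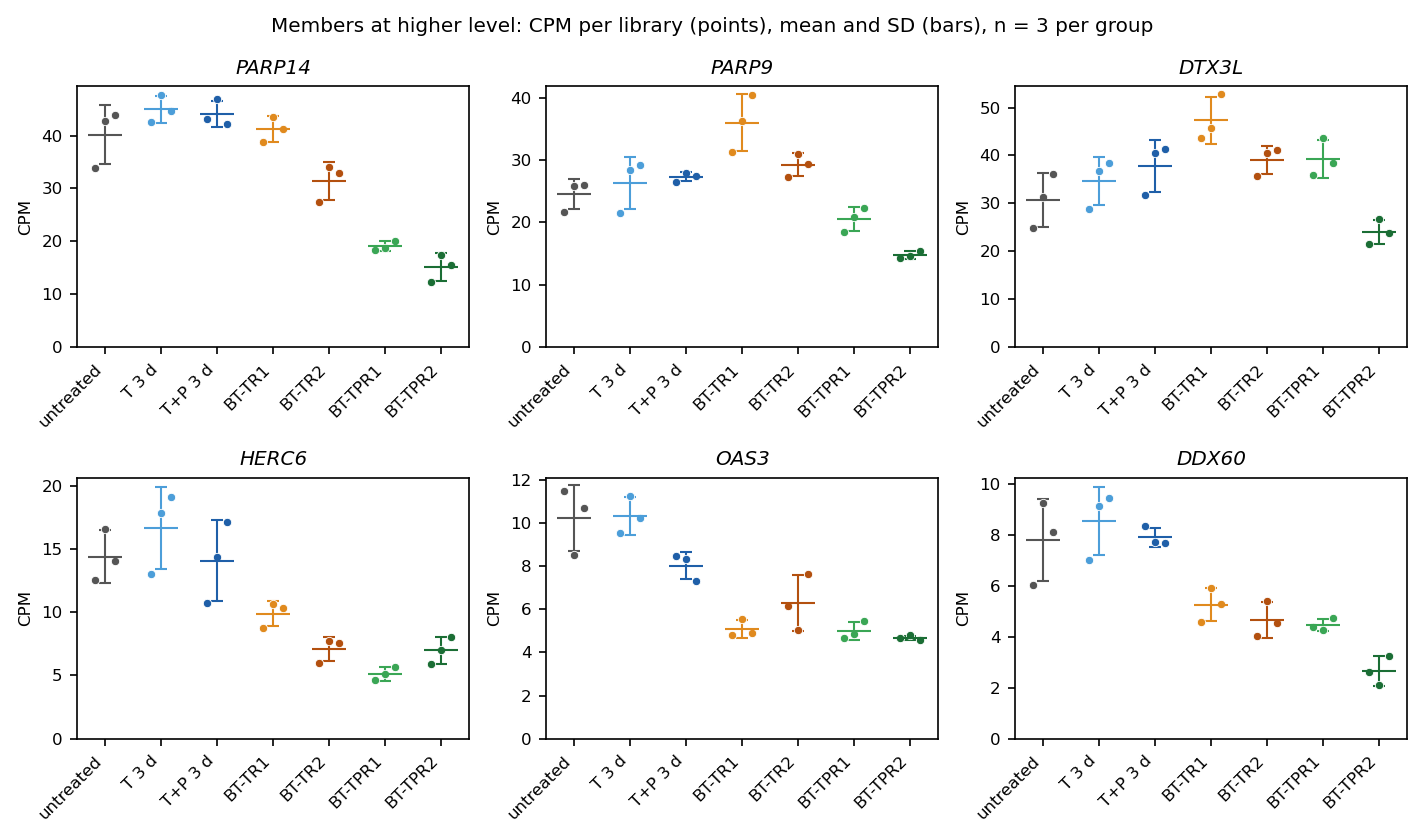
CPM of PARP14, PARP9, DTX3L, HERC6, OAS3 and DDX60 in every library (points), with the group mean and SD as bars, by group on the x axis. PARP14 is lower in the 6 dual-resistant libraries than in all 15 others, and OAS3 and DDX60 are below untreated cells in all 12 resistant libraries.

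TRIM21, the cytosolic antibody receptor and ubiquitin ligase, rose in each of the 4 pools. It read 4.56, 4.81 and 4.63 CPM in untreated cells, 8.38, 8.18 and 8.84 in the BT-TR1 libraries, 7.62, 8.29 and 8.21 in those of BT-TR2, 6.27, 7.68 and 8.33 in those of BT-TPR1, and 7.33, 7.54 and 8.71 in those of BT-TPR2. All 12 resistant libraries lay above all untreated ones. TRIM21 stood at 5.46 ± 0.526 after trastuzumab and 6.03 ± 0.392 after both, and every antibody-treated library also lay above all untreated ones. The rises in BT-TR1 (0.86 ± 0.13, adjusted p = 8.43e-05), BT-TR2 (0.78 ± 0.13, adjusted p = 0.000239), BT-TPR1 (0.67 ± 0.13, adjusted p = 0.000989) and BT-TPR2 (0.75 ± 0.13, adjusted p = 0.000259) each held under all 31 alternatives.

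A direct comparison of the 2 classes of pool, chosen after seeing the data, set the mean of the dual-resistant pools against the mean of the trastuzumab-resistant pools. Of 36 members 0 were called higher and 18 lower in the dual-resistant pools, against 19.7% of all genes called (8.45% higher, 11.3% lower). The median change was -0.47 over the 36 and -0.23 over the 25 with a mean of at least 1 CPM, against 0.01 over all genes. At an unadjusted p under 0.05 edgeR had 1 member higher and 19 lower, and after adjustment DESeq2 called 0 and 17 and limma on the deposited values 0 and 16. Among the 25 members with a mean of at least 1 CPM, 0 were higher and 11 lower (44.0%), against 12.0% lower of all 14938 tested genes of that level. Both dual-resistant pool means lay below both trastuzumab-resistant pool means for 22 of 36 members (61.1%), against 20.0% of all tested genes, and above them for 0, against 18.3%. The 36 hold IFIT1, OAS1, OAS2, BST2, EPSTI1 and IFITM2, tested because of their levels in the trastuzumab-resistant pools, so the filter partly sets their order. Among the 25 of at least 1 CPM, the dual-resistant means were lower for 14 (56.0%), against 19.7% of all genes of that level. With 2 pools a class, an exact permutation of pools cannot go below a two-sided p of 0.333, so these p-values speak for these 4 pools only. Change in this comparison also went with GC content across genes (r = 0.304), and 17 of the 18 calls were kept with the GC correction.

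Among members at low levels, OAS1, OAS2, IFIT1, BST2 and IFITM2 were tested because of their levels in the trastuzumab-resistant pools, so that their differences here are descriptions too. IFITM2 reached the level asked by the filter in 2 libraries of BT-TR2 and 1 untreated library. OAS2, with 7 reads in the 6 dual-resistant libraries and 52 in the other class, had a change of -3.08 ± 0.50 (adjusted p = 0.00018), and its ratio of trastuzumab-resistant to dual-resistant summed CPM was 9.13 (95% exact interval 4.13 to 23.8). Without BT-TPR2 replicate 2, which held all the reads of that pool, the fitted value was -4.63 (adjusted p = 7.69e-05, range 3.49e-07 to 0.00106). IFIT2 (-2.65 ± 0.27, adjusted p = 7.09e-07), IFIT1 (-2.52 ± 0.33, adjusted p = 1.87e-05), BST2 (-2.05 ± 0.48, adjusted p = 0.00461), RSAD2 (-1.79 ± 0.31, adjusted p = 0.00035) and OAS1 (-1.61 ± 0.27, adjusted p = 0.000253) followed. Among more abundant members, PARP14 (-1.08 ± 0.09, adjusted p = 7.7e-08), PARP9 (-0.89 ± 0.09, adjusted p = 7.82e-07), IRF9 (-0.73 ± 0.14, adjusted p = 0.00106) and IFIH1 (-0.70 ± 0.11, adjusted p = 0.000182) were lower. These 10 calls held under every alternative run, and the libraries of the 2 classes overlapped only in BST2. For OAS2, IFIT1, BST2 and OAS1 the filter partly sets this order, so their stability and separation are descriptions and not support. The endothelial marker CDH5 was lower in the dual-resistant pools as well, by the levels given above, and its part in these differences was not tested.

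Further members were called with overlapping libraries. The call of MX1 (-0.68 ± 0.17, adjusted p = 0.00853) was lost with no filter (-0.67 at an adjusted p of 0.0527) or without BT-TR1 replicate 2 (-0.60 at an adjusted p of 0.0565) (range 0.00174 to 0.0565 over 31 alternatives). The call of HERC6 (-0.49 ± 0.14, adjusted p = 0.0167) was lost with library size alone (-0.42 at an adjusted p of 0.0951) or without BT-TR1 replicate 2 (-0.45 at an adjusted p of 0.0539) (range 0.000116 to 0.0951 over 31 alternatives). The call of DDX60 (-0.53 ± 0.14, adjusted p = 0.0103) was lost with library size alone (-0.46 at an adjusted p of 0.0503) (range 0.00168 to 0.0503 over 31 alternatives). That of DTX3L (-0.48 ± 0.11, adjusted p = 0.00281) was lost with library size alone (-0.41 at an adjusted p of 0.0545) (range 2.05e-06 to 0.0545 over 31 alternatives). DTX3L is the 1 called member whose pool means interleave, at 47.4 ± 4.92 CPM for BT-TR1, 39.4 ± 3.96 for BT-TPR1, 39.1 ± 2.94 for BT-TR2 and 24.01 ± 2.59 for BT-TPR2. The call of IFITM2 (-1.44 ± 0.45, adjusted p = 0.0286), a description of levels as said above, was lost under 5 of 28 alternatives (range 0.00712 to 0.195). This occurred in fits lacking 1 library, namely BT-TR1 1, BT-TPR1 2 or 3, BT-TPR2 1 or 2 (-1.41 to -1.05, adjusted p 0.0548 to 0.195). The call of IFIT5 (-0.75 ± 0.24, adjusted p = 0.0341) was lost under 11 of 31 alternatives (range 0.00766 to 0.191), 9 of them fits without 1 library (-0.78 to -0.66, adjusted p 0.0523 to 0.0946). The calls of DDX58 (-0.46 ± 0.16, adjusted p = 0.0484) and CMPK2 (-0.43 ± 0.15, adjusted p = 0.0467) were the least stable: the first was lost under 17 of 31 alternatives (range 0.000485 to 0.162), 14 of them fits without 1 library (-0.49 to -0.35, adjusted p 0.0535 to 0.152). The second was lost under 24 of 31 alternatives (range 0.0127 to 0.268), 17 of them fits without 1 library (-0.45 to -0.34, adjusted p 0.0544 to 0.17). EPSTI1, MX2, OAS3, TRIM21, SP100, STAT2 and ADAR were not called between the classes, which does not show that they were equal. The ratio for EPSTI1 was 1.38 (95% exact interval 0.838 to 2.27).

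Between pools of the same class, few members were called. In BT-TR2 against BT-TR1 4 of 36 members were called higher and 2 lower, against 17.7% of all genes called (9.64% higher, 8.09% lower), a share near that of all genes. In a fit of the compared groups 0 were called. Without BT-TR2 replicate 1 the count was 1, and without BT-TR1 replicate 2 or 3 it was 2. USP18 was higher in BT-TR2, at 9.48 ± 1.64 against 5.99 ± 0.667 CPM (0.65 ± 0.15, adjusted p = 0.00879). This one was lost in a fit of these groups only (0.66 at an adjusted p of 0.0575), without BT-TR1 replicate 3 (0.57 at an adjusted p of 0.056) or without BT-TR2 replicate 1 (0.52 at an adjusted p of 0.0687) (range 0.000551 to 0.0687 over 31 alternatives). IFITM3 was higher (1.36 ± 0.39, adjusted p = 0.0251). That result was lost in a fit of these groups only (1.37 at an adjusted p of 0.0532), without BT-TR1 replicate 2 (1.17 at an adjusted p of 0.112), without BT-TR1 replicate 3 (1.18 at an adjusted p of 0.119) or without BT-TR2 replicate 1 (0.99 at an adjusted p of 0.169) (range 2.47e-07 to 0.169 over 31 alternatives). MX1 was higher (0.86 ± 0.24, adjusted p = 0.0219). This result was lost under 8 of 31 alternatives (range 0.00711 to 0.165). Among them were those without BT-TR1 replicate 1 (0.56 at an adjusted p of 0.125), without BT-TR1 replicate 2 (1.00 at an adjusted p of 0.0509), without BT-TR2 replicate 1 (0.81 at an adjusted p of 0.103) or without BT-TR2 replicate 2 (0.82 at an adjusted p of 0.0512). IFI35 was higher (0.76 ± 0.23, adjusted p = 0.0324). That one was lost under 7 of 31 alternatives (range 0.00682 to 0.224). They included the fits without BT-TR1 replicate 2 (0.61 at an adjusted p of 0.142), without BT-TR1 replicate 3 (0.62 at an adjusted p of 0.149), without BT-TR2 replicate 1 (0.54 at an adjusted p of 0.206) or without BT-TR2 replicate 2 (0.78 at an adjusted p of 0.0512). MX2 was lower (-0.37 ± 0.09, adjusted p = 0.0119). The result was lost with no filter (-0.35 at an adjusted p of 0.161), with library size alone (-0.30 at an adjusted p of 0.0761) or in a fit of these groups only (-0.36 at an adjusted p of 0.0541) (range 0.000343 to 0.161 over 31 alternatives). PARP14 was lower (-0.39 ± 0.13, adjusted p = 0.0433). That call was lost under 15 of 31 alternatives (range 0.00118 to 0.441), 10 of them fits without 1 library (-0.42 to -0.30, adjusted p 0.0505 to 0.232). With the GC correction 3 of the 6 calls remained.

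In BT-TPR2 against BT-TPR1 0 members were higher and 4 lower, against 3.45% of all genes (1.64% higher, 1.81% lower), and with the replicate block 3 and 5, against 5.85% and 6.16% of all genes. At an unadjusted p under 0.05 edgeR had 2 higher and 6 lower, DESeq2 called 0 and 4 and limma 0 and 3. DTX3L was lower (-0.71 ± 0.15, adjusted p = 0.00876). This call was lost with library size alone (-0.76 at an adjusted p of 0.053), in a fit of these groups only (-0.72 at an adjusted p of 0.0523), without BT-TPR1 replicate 2 (-0.63 at an adjusted p of 0.0681) or without BT-TPR2 replicate 1 (-0.64 at an adjusted p of 0.0527) (range 1.68e-06 to 0.0681 over 31 alternatives). MX2 was lower (-0.46 ± 0.09, adjusted p = 0.00447). The call was lost with no filter (-0.44 at an adjusted p of 0.165) or in a fit of these groups only (-0.46 at an adjusted p of 0.108) (range 5.22e-06 to 0.165 over 31 alternatives). DDX60 was lower (-0.76 ± 0.20, adjusted p = 0.0369). This one was lost under 10 of 31 alternatives (range 0.00323 to 0.182). That occurred with no filter, library size alone and a fit of these groups only, and in fits lacking 1 library, namely both-antibody 2, BT-TR2 3, BT-TPR1 1, 2 or 3, BT-TPR2 1 or 2 (-0.79 to -0.61, adjusted p 0.0504 to 0.182). PARP9 was lower (-0.47 ± 0.13, adjusted p = 0.0483). That result was lost under 22 of 31 alternatives (range 0.000486 to 0.219), 17 of them fits without 1 library (-0.55 to -0.41, adjusted p 0.0529 to 0.193). Without BT-TPR1 replicate 2 or BT-TPR2 replicate 1 the count was 1, and it was 2 without BT-TPR1 replicate 1 or 3, BT-TPR2 replicate 2, BT-TR2 replicate 3, or replicate 2 of both antibodies.

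The 7 tested members that passed in no comparison were ISG15, IFI6, STAT2, IRF1, SAMD9, PLSCR1 and ADAR. ADAR was at 361 ± 21.8, 382 ± 45.5, 373 ± 17.9, 408 ± 22.2, 393 ± 10.3, 406 ± 17.1 and 400.5 ± 19.7 CPM in the order of groups given above. IFI6, a membrane protein of mitochondria and endoplasmic reticulum, was at 2.88 ± 0.999, 2.83 ± 1.20, 2.19 ± 0.575, 2.79 ± 0.616, 3.79 ± 2.42, 1.39 ± 0.115 and 2.62 ± 1.26 CPM. Its changes in BT-TPR1 (-1.04) and in dual-resistant against trastuzumab-resistant pools (-0.75) passed with the replicate block (adjusted p = 0.0025 and 0.00249) and not without it (0.0889 and 0.0842). ISG15 was at 0.525 ± 0.177, 0.115 ± 0.0508, 0.262 ± 0.232, 0.226 ± 0.128, 0.446 ± 0.243, 0.419 ± 0.292 and 0.281 ± 0.313 CPM, and an antisense gene over it held 72 counts where ISG15 held 120. PLSCR1, a phospholipid scramblase, had group means from 9.92 to 11.7 CPM, and SAMD9 from 0.552 to 1.17.

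**Figure D5:**
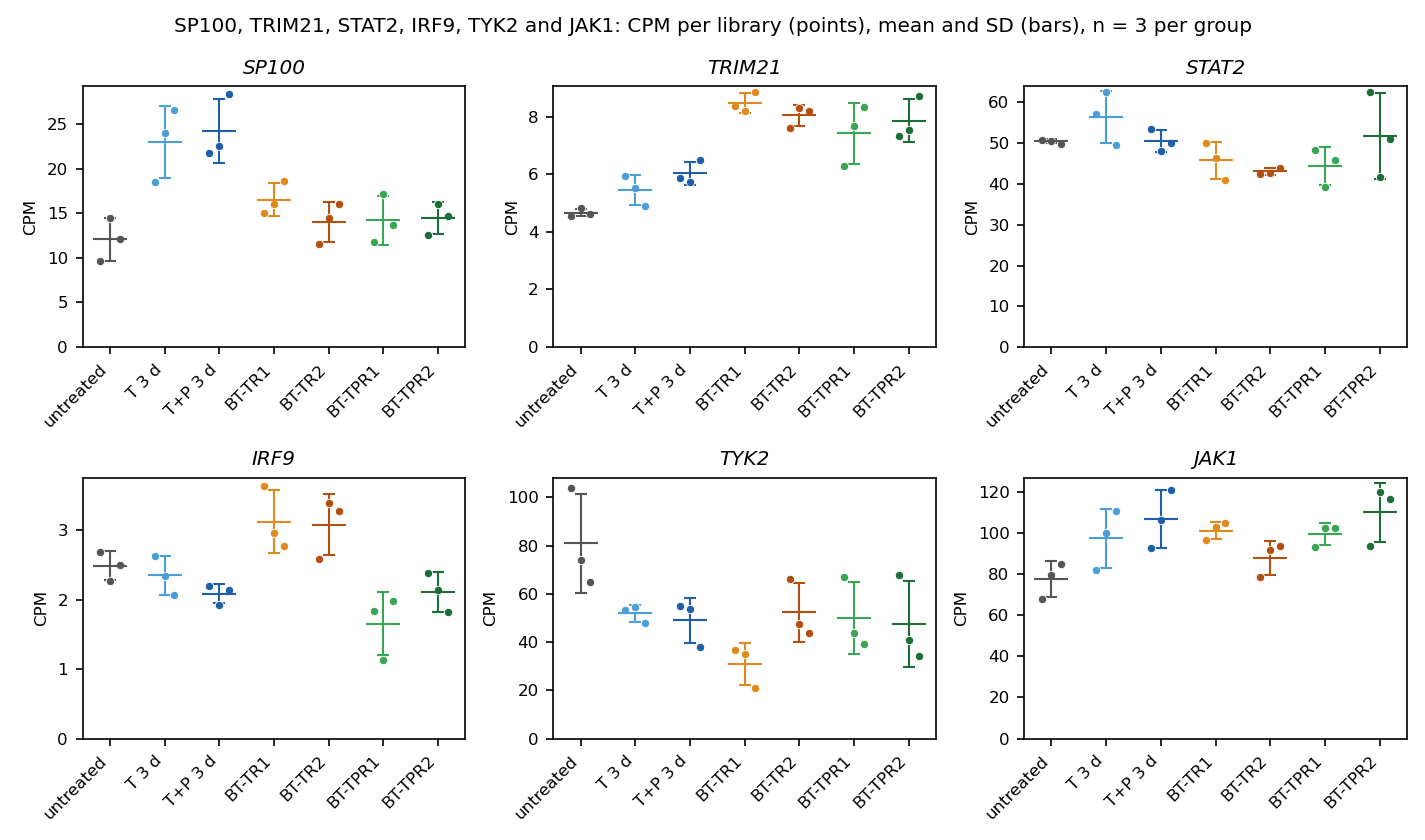
CPM of SP100, TRIM21, STAT2, IRF9, TYK2 and JAK1 in every library (points), with the group mean and SD as bars, by group on the x axis. SP100 is above untreated cells in the 6 antibody-treated libraries and in every BT-TR1 library. TRIM21 is above untreated cells in the 6 antibody-treated and all 12 resistant libraries. IRF9 is lower in all 6 dual-resistant than in all 6 trastuzumab-resistant libraries.

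Other genes of the pathway were counted from lists grouped by function. Each count is read against the share of all genes called in either direction, which was 7.48% with trastuzumab, 12.4% after both, 43.6% for BT-TR1, 24.9% for BT-TR2, 27.3% for BT-TPR1 and 31.6% for BT-TPR2. Of 32 tested other interferon alpha response genes, 0 rose and 0 fell with trastuzumab, 1 and 1 after both, 9 and 5 for BT-TR1, 4 and 6 for BT-TR2, 2 and 6 for BT-TPR1, and 2 and 9 for BT-TPR2. In dual-resistant against trastuzumab-resistant pools, 0 of these were higher and 8 lower, against 8.45% and 11.3% of all genes. For BT-TR1 the 14 of 32 called are near the share of all genes, and the totals called for BT-TPR1 and BT-TPR2 are near theirs too. TNFSF10, which encodes the death ligand TRAIL, rose with both antibodies from 25.8 ± 5.88 to 50.2 ± 4.08 CPM (0.96 ± 0.16, adjusted p = 0.000591) and fell in BT-TPR2 to 9.23 ± 1.56 (-1.49 ± 0.17, adjusted p = 2.62e-06). TNFSF10 also fell in BT-TR2 (-0.80 ± 0.17, adjusted p = 0.00161) and BT-TPR1 (-0.78 ± 0.17, adjusted p = 0.00194). DDX60L, the paralog next to DDX60, fell in BT-TR2 (-0.86 ± 0.20, adjusted p = 0.00378) and BT-TPR2 (-1.10 ± 0.20, adjusted p = 0.00037). SLFN5, of the Schlafen family, fell in BT-TPR2 from 167 ± 33.5 to 68.3 ± 10.7 CPM (-1.29 ± 0.22, adjusted p = 0.000208).

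Of 15 tested negative regulators, 2 rose and 0 fell in each antibody-treated group, 4 and 6 for BT-TR1, 3 and 1 for BT-TR2, 3 and 2 for BT-TPR1, and 4 and 2 for BT-TPR2. For BT-TR2 the 4 of 15 called are near the share of all genes. IRF2, a repressor at interferon-responsive promoters, was at 17.1 ± 2.04, 23.1 ± 1.79, 22.5 ± 2.30, 29.6 ± 1.49, 29.2 ± 1.96, 29.8 ± 1.68 and 29.02 ± 3.14 CPM. It rose in BT-TR1 (0.79 ± 0.12, adjusted p = 5.92e-05), BT-TR2 (0.77 ± 0.12, adjusted p = 9.34e-05), BT-TPR1 (0.80 ± 0.12, adjusted p = 5.96e-05) and BT-TPR2 (0.76 ± 0.12, adjusted p = 7.19e-05). IRF2 was also called higher with trastuzumab (0.43 ± 0.12, adjusted p = 0.0301) and with both antibodies (0.39 ± 0.12, adjusted p = 0.032). SOCS2, a feedback inhibitor of cytokine receptor signalling, rose with trastuzumab from 15.9 ± 0.688 to 31.1 ± 2.82 CPM (0.97 ± 0.14, adjusted p = 0.000231) and with both antibodies (0.57 ± 0.14, adjusted p = 0.0106). It fell in each pool, most in BT-TPR1, to 3.91 ± 0.793 CPM (-2.03 ± 0.15, adjusted p = 1.53e-08). The other falls were in BT-TR1 (-1.07 ± 0.15, adjusted p = 2.63e-05), BT-TR2 (-0.73 ± 0.14, adjusted p = 0.000954) and BT-TPR2 (-0.89 ± 0.14, adjusted p = 0.000109). Of 12 tested nucleic acid sensors and adaptors, 0 rose and 0 fell in either antibody-treated group, 1 and 1 for BT-TR2, 1 and 1 for BT-TPR1 and 0 and 3 for BT-TPR2. In BT-TR1 2 rose and 3 fell, 5 of 12 and near the share of all genes. DHX58, a RIG-I-like receptor, fell (-1.13 ± 0.25, adjusted p = 0.00169) and the kinase TBK1 rose (0.62 ± 0.15, adjusted p = 0.00366). Of 11 tested interferon gamma response genes, 2 rose and 0 fell in each antibody-treated group, among them GBP2, a guanylate-binding protein (0.48 ± 0.14, adjusted p = 0.0482, and 0.62 ± 0.14, adjusted p = 0.00726 with both antibodies). In the pools the counts of that list were 2 and 1 for BT-TR1, 1 and 0 for BT-TR2, 0 and 1 for BT-TPR1 and 0 and 2 for BT-TPR2. WARS, a tRNA synthetase of that list, was lower in dual-resistant than in trastuzumab-resistant pools (-0.59 ± 0.08, adjusted p = 3.05e-05).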

How the data were processed

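RNA of 21 BT474-derived libraries was sequenced. The submitters' processing notes name Bowtie2, featureCounts, DESeq2 and build hg38; versions and strand setting are not given in the sources used here. The authors deposited raw read counts by gene, and variance-stabilized values on a log2 scale that served for 1 alternative. R 4.3.3 with edgeR 4.0.16 was run on the counts: filterByExpr (minimum count 10, minimum total 15, leaving 17650 of 37355 genes), TMM scaling, 1 quasi-likelihood fit over all groups (14 residual degrees of freedom) and Benjamini-Hochberg adjustment over all tested genes. Adjusted p-values are from that test unless another tool is named. Values after ± are SD for CPM and SE for log2 fold changes, and fold changes are first group minus second. Exon length, GC content and positions came from GENCODE 29, which matched 36530 genes by ID.

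Alternatives were no filter, RLE, library size as the only scaling, DESeq2 1.42.0, limma 3.58.1 on the deposited values, a fit of the compared groups, the replicate number as a block, replicates 2 and 3 alone, and each library left out. A GC correction (spline of 5 degrees of freedom), the same with the block, and the comparison between classes of pool were chosen after seeing the data. Same-numbered libraries deviated together (correlation over 0.1 in all 3 pairs) in 8 of 10 comparisons, not in both antibodies against untreated or BT-TR2 against BT-TR1; this pairing is read from the data, since the labels give only a number. On simulated data for BT-TR1 against untreated (17329 genes), the test found 22.4% of genes changed 1.5-fold, 49.2% changed 2-fold and 90.9% changed 4-fold, and 4 of its 112 calls were unchanged genes. That simulation changed few genes and held no pairing of libraries and no trend with GC content. In the data 43.6% of genes were called in this comparison, so the simulated rates may not hold there. Members and lists were chosen with earlier results of these data known. Named members are those called in a comparison with at least 5 CPM and no overlap of libraries (up to 6 a direction), and a set given in every group; other called members were chosen after their values were seen. Some items are not reported here.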

Additional observations from a re-analysis of the deposited data

Results flagged for a closer look

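The difference between the 2 pools of a class passed a direct test (an edgeR contrast, adjusted over all genes) for 10 member values. Between the trastuzumab-resistant pools, BT-TR2 minus BT-TR1, they were 0.86 for MX1, 0.76 for IFI35, 0.65 for USP18, 1.36 for IFITM3, -0.37 for MX2 and -0.39 for PARP14 on the log2 scale. Change in that comparison went with GC content across genes (r = 0.635), and with the GC correction IFI35 was 0.39 (adjusted p = 0.224, range 0.00682 to 0.224), PARP14 -0.12 (adjusted p = 0.441, range 0.00118 to 0.441) and MX1 0.79 (adjusted p = 0.0562, range 0.00711 to 0.165). Between the dual-resistant pools, BT-TPR2 minus BT-TPR1, they were -0.76 for DDX60, -0.71 for DTX3L, -0.47 for PARP9 and -0.46 for MX2. None of the 10 calls held under every alternative.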

How the results depend on the processing

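Members under 1 CPM rest on few reads, and a fit without 1 library assumes that its group's spread is that of the others. Called members (of 36) moved by more than 1.5 times as follows. With trastuzumab, 2 became 1 with library size alone and in a fit of the compared groups, 5 with the replicate block and 4 with GC correction and block. With both antibodies, 4 became 2 with no filter, with library size alone and with limma, 1 in a fit of the compared groups, 8 with the block and 7 with GC correction and block; against trastuzumab, 0 became 2 with the block, with GC correction and with both, and 1 with DESeq2. In BT-TR2, 15 became 8 in a fit of the compared groups. In BT-TPR1, 14 became 24 with the block and 23 with GC correction, alone or with the block; in BT-TPR2, 9 became 16 and 15. Between BT-TR pools, 6 became 0 in a fit of the compared groups, 11 with the block and 3 with GC correction. Between BT-TPR pools, 4 became 1 with no filter and with library size alone, 0 in a fit of the compared groups, 8 with the block, 7 with GC correction and 9 with both. The cause was not tested. No other count of called members moved that far under these settings.

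Leaving out 1 library gave 1 to 2 calls with trastuzumab, 2 to 4 with both antibodies, 0 to 1 between these, 15 to 19 in BT-TR1, 10 to 15 in BT-TR2, 8 to 14 in BT-TPR1, 7 to 11 in BT-TPR2, 1 to 8 between BT-TR pools, 1 to 4 between BT-TPR pools and 13 to 18 between classes. In BT-TR1, PARP14 turned from 0.04 to -0.25 with GC correction and -0.26 with GC correction and block, and PLSCR1 to -0.31 with both. With the block no member call was lost, and it added 3 with trastuzumab, 4 with both antibodies, 2 between these, 3 in BT-TR1, 4 in BT-TR2, 10 in BT-TPR1, 7 in BT-TPR2, 5 between BT-TR pools, 4 between BT-TPR pools and 3 between classes. Same-numbered libraries correlated above 0.1 in all 3 pairs in 8 of 10 comparisons.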
